A study of Homo sapiens with 18 samples.

Results

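The subject is the interaction of CGRP with energy stress in Cal27 cells, an established line of human tongue squamous cell carcinoma. For each gene, the change with CGRP in cells given 2-deoxyglucose (2-DG) was set against the change with CGRP in cells kept without glucose. The 12 libraries used are those labelled with either of these media, of 18 in the series, and they form 4 groups of 3: 2-DG with CGRP, 2-DG control, glucose-deprived with CGRP and glucose-deprived control. 2-DG was given at 5 mM in high-glucose DMEM, and recombinant human CGRP at 10 nM, for 24 hours. The other 6 libraries, high-glucose medium with and without CGRP, entered the estimate of the spread and are given only for orientation. The design text reads the sample codes TG and capTG as CGRP and control medium, while the growth protocol speaks of different CM, so the labels alone do not settle whether conditioned media were used or which arm is which. Directions are given as the design text reads the codes, and with the arms exchanged every sign would turn. The series calls its repetitions biologically independent.

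CGRP is a neuropeptide released by sensory nerve endings. It acts through a receptor made of CALCRL and the accessory protein RAMP1, which raises cyclic AMP. 2-DG is a glucose analogue that is phosphorylated but not metabolised further, so it slows glycolysis, and it also competes with mannose in the building of N-linked glycans. Loss of glucose and loss of N-glycans both burden the endoplasmic reticulum (ER), where the unfolded protein response raises chaperones and the kinase PERK, through the transcription factor ATF4, raises genes of amino acid supply. Sets of genes governed by these responses, by the oxidative stress factor NRF2, by hypoxia and by the cell cycle were therefore followed along with the genes that differed most.

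CGRP changed many genes in each medium, and for a part of them the change depended on the medium. Of 18159 genes tested, 702 (3.87%) had a CGRP effect that differed between 2-DG and deprived medium, 307 (1.69%) with a positive and 395 (2.18%) with a negative difference (edgeR quasi-likelihood test, Benjamini-Hochberg adjusted p under 0.05). A positive difference means that CGRP raised the gene more, or lowered it less, in 2-DG medium. In 2-DG medium itself CGRP changed 2216 genes (12.2%), 964 up (5.31%) and 1252 down (6.89%). In deprived medium it changed 2354 (13.0%), 1159 up (6.38%) and 1195 down (6.58%). The median absolute difference among the 702 genes was 0.51 on the log2 scale, and 81 of them differed by at least 1, 27 upward and 54 downward.

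Outright reversal was the less common form. Among the 702 genes, 77 (0.424% of all tested) rose with CGRP in one medium and fell in the other: 48 rose in 2-DG and fell in deprived medium, and 29 did the opposite. A further 299 passed the threshold in 2-DG medium alone, 248 in deprived medium alone, 47 in both with the same sign and 31 in neither.

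**Figure D1:**
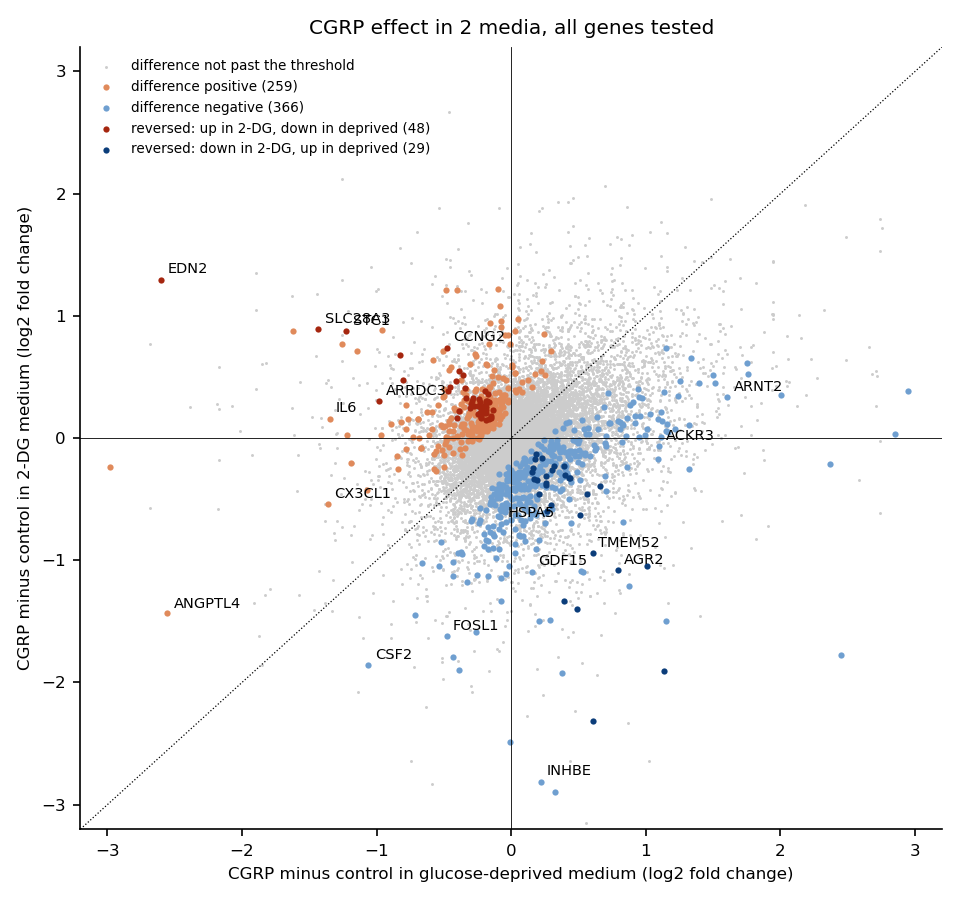
Each point is 1 of the genes tested, with the log2 fold change with CGRP in 2-DG medium on the vertical axis and in glucose-deprived medium on the horizontal axis; the dotted line marks equal effects. The 702 genes whose effects differed are coloured, the 77 reversals in dark red and dark blue, and EDN2 at the upper left and AGR2 and INHBE at the lower right lie far from the line; 17 genes beyond the axes, 0 of them among the 702, are not drawn.

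The libraries held 28038260 to 32661768 counts. Levels are given in CPM, the count of a gene adjusted for the size of its library. In a principal component analysis of the 12, the first component (69.8% of the variance) parted the media. On the second (10.2%) deprived CGRP 2 lay at -58.4 and 2-DG control 2 at -37.5, and the other 10 between -2.8 and 14.4. In both, long transcripts were low: in the longest of 5 equal groups of genes by transcript length the median deviation from the group mates was -0.23 and -0.15 log2 CPM, and the deviations of the 2 libraries correlated at 0.64. Both enter the difference with a minus sign. Without them 3219 of 18476 genes (17.4%) differed, 1596 (8.64%) upward and 1623 (8.78%) downward, and 432 (2.34%) reversed. Of the 702 genes, 682 passed again with the same sign, and of the 77 reversals 74 did. Their part in single results was not tested, and counts and values without them, to be read against these shares, are given beside many of the results.

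**Figure D2:**
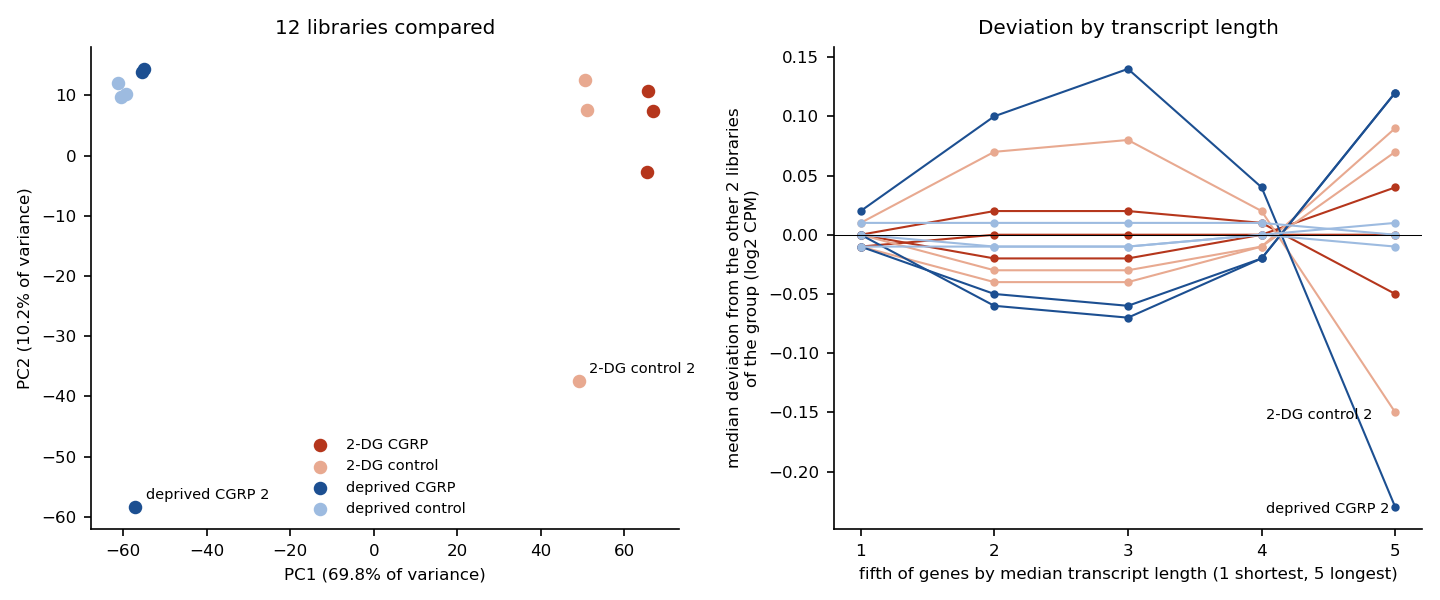
Left, the first and second principal components of log2 CPM of the 12 libraries, coloured by group. Right, the median deviation of each library from the other 2 of its group (log2 CPM) over 5 equal groups of genes by transcript length; deprived CGRP 2 and 2-DG control 2 lie apart in both panels.

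The cells carried their epithelial markers in both media. All 10 markers of oral keratinocytes were tested, and only KRT6A among them differed in its CGRP response. Without deprived CGRP 2 and 2-DG control 2, the 2 libraries that stand apart, 4 of the 10 had a positive and 1 a negative difference. Their summed level was 5358 to 5454 CPM with CGRP and 5134 to 5609 CPM without it in 2-DG medium, and 3959 to 3999 CPM with CGRP and 4149.7 to 4260.4 CPM without it in deprived medium. Markers of other cells were low in part. Under 1 CPM in all 12 libraries were 5 of 14 neuronal, 3 of 8 Schwann cell, 7 of 10 leukocyte, 5 of 9 fibroblast and 5 of 7 endothelial markers, and TAC1 and CALCA of neurons and S100B of Schwann cells had 0 counts. Others were present over the 12 libraries, with MBP at 44.4 to 66.8 CPM, ERBB3 at 31.1 to 48.9 CPM and NGFR at 17.4 to 40.9 CPM. SCN9A of neurons was at 0.432 to 30.9 CPM and CDH5 of endothelial cells at 1.55 to 42.2 CPM. Across these 5 lists only CSF1R of the leukocyte list differed (adjusted p = 0.048, lost in 15 of 20 alternatives). By the same edgeR test 4 of 9 neuronal and 2 of 4 fibroblast markers had an unadjusted p under 0.05. DESeq2 called 0 of either at an adjusted p under 0.05. Without the 2 libraries that stand apart the edgeR difference of CSF1R was -0.86 (adjusted p = 4.8e-05). In that fit 1 Schwann cell and 1 fibroblast marker also had a negative difference. The summed neuronal markers were at 39.5 to 44.9 CPM with CGRP and 29.98 to 32.3 CPM in controls in 2-DG medium, and at 65.5 to 78.8 CPM with CGRP and 66.8 to 67.4 CPM in controls in deprived medium. The summed fibroblast markers were at 24.4 to 25.4 CPM and 17.9 to 19.7 CPM in the same order in 2-DG medium, and at 10.9 to 15.7 CPM and 10.6 to 11.6 CPM in deprived medium. The summed endothelial markers were at 39.29 to 43.35 CPM with CGRP and 21.22 to 25.02 CPM in controls in 2-DG medium. In deprived medium they were at 3.083 to 3.87 CPM with CGRP and 1.792 to 2.602 CPM in controls. Whether the markers of these other cells have a part in any result was not tested.

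The 2 receptor genes did not pass the test of the difference. CALCRL had 6.46, 6.63 and 5.56 CPM in the 2-DG CGRP libraries and 5.20, 2.94 and 4.78 CPM in the 2-DG controls. It had 3.36, 2.47 and 2.54 CPM in the deprived CGRP libraries and 2.14, 2.14 and 2.24 CPM in the deprived controls. RAMP1 had 22.5, 19.8 and 22.2 CPM in the 2-DG CGRP libraries and 20.1, 29.4 and 19.6 CPM in the 2-DG controls, and 6.64, 12.1 and 6.96 CPM in the deprived CGRP libraries and 6.72, 6.51 and 7.45 CPM in the deprived controls. The difference of the CGRP effect was 0.17 ± 0.29 for CALCRL (adjusted p = 0.78) and -0.40 ± 0.26 for RAMP1 (adjusted p = 0.43), and neither passed. Both high RAMP1 values, 29.4 and 12.1 CPM, came from the libraries that stand apart, and without those libraries both estimates turned sign, to -0.12 for CALCRL (adjusted p = 0.78) and 0.13 for RAMP1 (adjusted p = 0.52). Among the 15 tested genes of the receptor, its ligands and coupling, 0 had a positive and 1 a negative difference, against 2 and 3 without those libraries. The 1 was ADM2, a peptide hormone of the same family. ADM2 had 3.02, 2.90 and 3.09 CPM in the 2-DG CGRP libraries and 6.82, 6.33 and 6.79 CPM in the 2-DG controls, without overlap. It had 35.2, 37.3 and 38.7 CPM in the deprived CGRP libraries and 38.5, 40.4 and 38.7 CPM in the deprived controls, with overlap. Its difference was -1.07 ± 0.10 (adjusted p = 1.6e-05). Of 20 Rap1 GTPases and regulators, which respond to cyclic AMP through EPAC proteins, 1 differed, RAP2B at -0.39 ± 0.08 (adjusted p = 0.0091), against 1 positive and 4 negative without the libraries that stand apart.

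EDN2 showed the largest positive difference among the genes named. EDN2 encodes endothelin 2, a vasoactive peptide. It had 9.38, 9.11 and 9.57 CPM in the 2-DG CGRP libraries and 3.94, 3.59 and 3.89 CPM in the 2-DG controls. It had 2.44, 0.462 and 2.96 CPM in the deprived CGRP libraries and 16.4, 9.03 and 11.1 CPM in the deprived controls. CGRP and control libraries did not overlap in either medium, and the direction was opposite. Such a lack of overlap was found for 29.8% of all genes tested in 2-DG medium and 30.2% in deprived medium, and for 2.36% in both with opposite directions. The log2 fold change with CGRP was 1.30 in 2-DG medium and -2.60 in deprived medium, a difference of 3.90 ± 0.43 (adjusted p = 9.8e-05). The lowest value, 0.462 CPM, was that of deprived CGRP 2, and without both libraries that stand apart the difference was 3.42. In high glucose EDN2 averaged 9.94 ± 0.873 CPM with CGRP and 9.26 ± 0.410 CPM in controls (SD, n = 3 each).

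STC1 and SLC28A3 reversed in the same direction. STC1, stanniocalcin 1, is a secreted glycoprotein that responds to hypoxia and calcium. It had 33.6, 33.1 and 33.3 CPM in the 2-DG CGRP libraries and 19, 17.1 and 18.5 CPM in the 2-DG controls. In deprived medium, where the gene was far lower, it had 1.52, 0.617 and 1.11 CPM in the deprived CGRP libraries and 2.67, 2.86 and 2.14 CPM in the deprived controls. The log2 fold changes with CGRP were 0.87 in 2-DG and -1.22 in deprived medium, and their difference was 2.10 ± 0.23 (adjusted p = 8.7e-05). SLC28A3, a concentrative nucleoside transporter, had 4.97, 5.44 and 4.93 CPM in the 2-DG CGRP libraries and 3.57, 1.75 and 2.90 CPM in the 2-DG controls. It had 0.601, 0.270 and 0.260 CPM in the deprived CGRP libraries and 1.22, 1.07 and 0.782 CPM in the deprived controls. These groups too did not overlap, and the difference was 2.33 ± 0.40 (adjusted p = 0.0033).

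Cyclin G2 reversed with little spread. CCNG2 is an atypical cyclin tied to cell cycle exit and under the control of FOXO factors. It had 40.2, 43.3 and 38.5 CPM in the 2-DG CGRP libraries and 25.3, 23.8 and 24.1 CPM in the 2-DG controls. It had 18.9, 15.7 and 16.3 CPM in the deprived CGRP libraries and 24, 23.9 and 23 CPM in the deprived controls. The controls of both media lay at nearly the same level, and CGRP moved it up in one medium and down in the other, by 0.74 and -0.48 on the log2 scale. Its difference was 1.21 ± 0.10 (adjusted p = 4.9e-06). PPP1R3B, a glycogen-targeting subunit of protein phosphatase 1, had a difference of 1.28 ± 0.20 (adjusted p = 0.0017), with effects of 0.47 in 2-DG and -0.81 in deprived medium. TCAF2, a partner of the TRPM8 channel, had 1.5 ± 0.21 (adjusted p = 7.9e-04), with effects of 0.68 and -0.83 in the same order. CEBPD, a C/EBP transcription factor, had 0.87 ± 0.19 (adjusted p = 0.014). Its effects of 0.42 and -0.45 each passed, and the call of the difference was lost in 2 of 20 alternatives.

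Other genes reversed the opposite way, falling with CGRP in 2-DG medium and rising in deprived medium. AGR2, a protein disulfide isomerase of the ER that mucin folding needs in mice, had 23.3, 20.5 and 19.8 CPM in the 2-DG CGRP libraries and 39.8, 54.9 and 40 CPM in the 2-DG controls. It had 308, 478 and 307 CPM in the deprived CGRP libraries and 201, 216 and 215 CPM in the deprived controls. The 2 highest values within their groups, 478 and 54.9 CPM, belonged to the libraries that stand apart. CGRP groups did not overlap with controls in either medium, the effects were -1.08 and 0.79, and the difference was -1.87 ± 0.21 (adjusted p = 1.3e-04), or -1.47 without those libraries. DUSP4, a phosphatase that switches off ERK and is itself induced by it, had 27.2, 29 and 30.4 CPM in the 2-DG CGRP libraries and 42.3, 35.7 and 40.7 CPM in the 2-DG controls. It had 50.3, 40 and 52.4 CPM in the deprived CGRP libraries and 31.4, 31.1 and 34.4 CPM in the deprived controls. Its difference was -1.01 ± 0.13 (adjusted p = 3.2e-04). TMEM52, a membrane protein, had effects of -0.94 in 2-DG and 0.60 in deprived medium and a difference of -1.55 ± 0.25 (adjusted p = 0.0025).

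**Figure D3:**
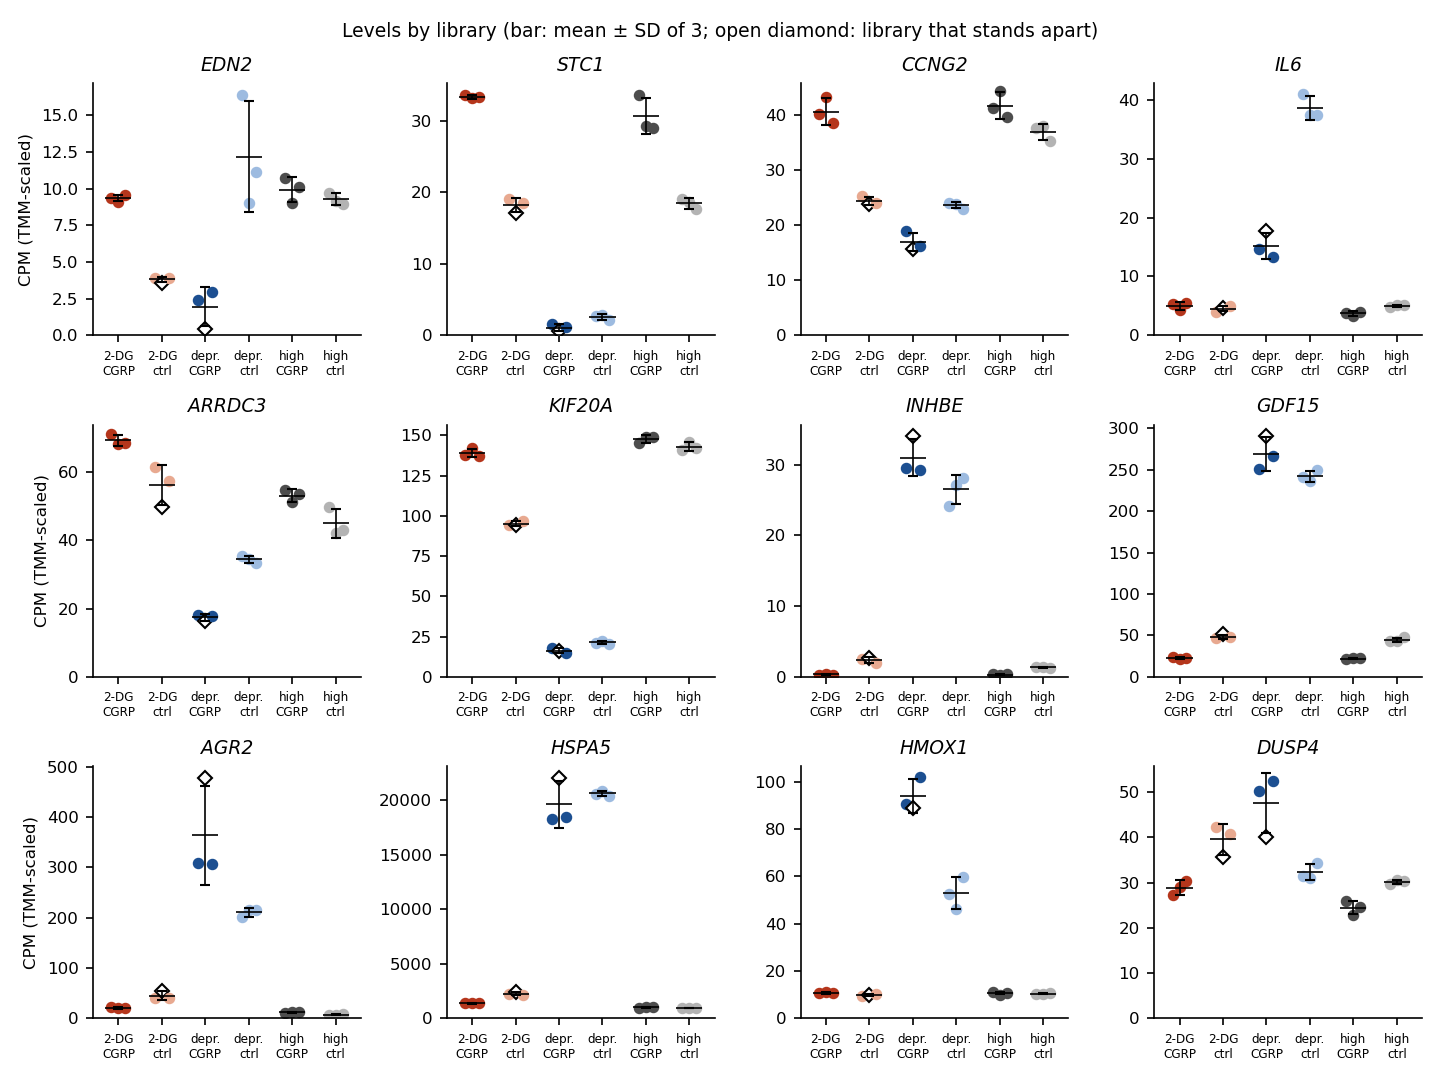
Level of 12 genes in each library (CPM, linear axes from 0), with the mean ± SD of the 3 libraries of each group; open diamonds mark deprived CGRP 2 and 2-DG control 2. EDN2, STC1, CCNG2 and KIF20A rose with CGRP in 2-DG and fell in deprived medium, AGR2 and DUSP4 did the reverse, and INHBE, GDF15 and HSPA5 fell with CGRP in 2-DG medium, where all their libraries lay below those of deprived medium.

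Negative differences were frequent among ATF4 targets, which CGRP lowered in 2-DG medium. Of 31 ATF4 targets tested, 1 had a positive and 14 a negative difference. The median over the list was -0.48, against -0.03 over all genes tested. CGRP lowered 22 of the 31 in 2-DG medium (median -0.56) and 8 in deprived medium (median -0.15), and raised 0 in either. Without the libraries that stand apart 2 were positive and 21 negative, with a median of -0.43. In that fit CGRP lowered 18 and raised 1 in deprived medium (median -0.11), and lowered 25 and raised 1 in 2-DG medium (median -0.55). The summed level of the list was 4993 to 5166 CPM with CGRP and 7169.6 to 7195 CPM in controls in 2-DG medium, and 12886 to 13125 CPM with CGRP and 13686 to 13934 CPM in controls in deprived medium.

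INHBE had the largest negative difference of the genes named. INHBE encodes the activin subunit beta E. It had 0.313, 0.451 and 0.230 CPM in the 2-DG CGRP libraries and 2.49, 2.67 and 1.91 CPM in the 2-DG controls. It had 29.6, 34 and 29.3 CPM in the deprived CGRP libraries and 24.2, 27.2 and 28.1 CPM in the deprived controls. In 2-DG medium the groups were far apart, by -2.81 on the log2 scale. The effect in deprived medium, 0.22, did not pass (adjusted p = 0.17), although those libraries did not overlap. The difference was -3.03 ± 0.24 (adjusted p = 4.9e-06). GDF15, a stress cytokine, had 23.5, 22 and 22.8 CPM in the 2-DG CGRP libraries and 46.4, 51.1 and 48.3 CPM in the 2-DG controls. It had 250.3, 291 and 267 CPM in the deprived CGRP libraries and 241, 236 and 249 CPM in the deprived controls. Its difference was -1.25 ± 0.09 (adjusted p = 2.5e-06). TRIB3, a pseudokinase that restrains ATF4, had 29.6, 28.9 and 27.4 CPM in the 2-DG CGRP libraries and 55.8, 65.3 and 56.5 CPM in the 2-DG controls. In deprived medium TRIB3 had 458, 557 and 459 CPM in the deprived CGRP libraries and 495, 499 and 499 CPM in the deprived controls, and these groups overlapped through deprived CGRP 2. Its difference was -1.03 ± 0.11 (adjusted p = 8.2e-05). Without the libraries that stand apart the difference was -0.86, and the effect in deprived medium was -0.11 and passed (adjusted p = 0.0057).

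Enzymes of serine synthesis had negative differences too. PSAT1, the aminotransferase of the pathway, had 195, 189.7 and 190.1 CPM in the 2-DG CGRP libraries and 409, 439.6 and 411 CPM in the 2-DG controls. It had 448, 496 and 443 CPM in the deprived CGRP libraries and 532, 519 and 515 CPM in the deprived controls. CGRP thus lowered it in both media, by -1.13 in 2-DG and -0.18 in deprived medium (difference -0.96 ± 0.07, adjusted p = 2.5e-06). PHGDH, which opens the pathway, had a difference of -0.85 and PSPH, which closes it, one of -0.48. Mitochondrial one-carbon enzymes SHMT2 and MTHFD2 had -0.41 and -0.39. PCK2, the mitochondrial phosphoenolpyruvate carboxykinase, had -0.97, and CHAC1, which degrades glutathione, -0.87. ATF3, a repressive factor downstream of ATF4, was the member with a positive difference, 0.32 ± 0.08 (adjusted p = 0.027), as CGRP lowered it more in deprived medium (-0.57) than in 2-DG medium (-0.25). That call was lost in 9 of 20 alternatives. DDIT3, the pro-apoptotic factor CHOP, did not pass (difference -0.87 ± 0.29, adjusted p = 0.12). Its level in deprived CGRP 2 was 489 CPM, against 269 and 273 CPM in the group mates, and without the libraries that stand apart the difference was -0.32 (adjusted p = 0.044). ASNS, asparagine synthetase, was listed at 5 CPM or less in all 12 libraries and did not pass (difference 0.07 ± 0.38, adjusted p = 0.94, or -0.34 and 0.47 without those libraries).

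Genes that use or carry amino acids had smaller negative differences. Of 18 cytosolic aminoacyl-tRNA synthetases, which charge tRNAs, 0 were positive and 8 negative, with a median of -0.17, against 2 and 11 without the libraries that stand apart. CGRP lowered 12 of the 18 in 2-DG medium and 4 in deprived medium. Without those libraries it lowered 13 and raised 1 in each medium. WARS1, for tryptophan, had 68.9, 68.6 and 66.2 CPM in the 2-DG CGRP libraries and 111, 117 and 114 CPM in the 2-DG controls. It had 426, 419 and 432 CPM in the deprived CGRP libraries and 412, 426 and 418 CPM in the deprived controls, with overlap. The difference was -0.77 ± 0.06 (adjusted p = 2.5e-06). GARS1, YARS1 and AARS1 had differences of -0.65 ± 0.08, -0.54 ± 0.08 and -0.45 ± 0.08. Of 19 amino acid transporters 1 was positive and 6 negative, with a median of -0.27. Without the libraries that stand apart 12 were negative and 1 positive, with a median of -0.51. SLC3A2, the heavy chain of the L-type exchangers, had -0.78 ± 0.11 (adjusted p = 9.2e-04), SLC1A5, the glutamine carrier, -0.56 ± 0.06 (adjusted p = 9.1e-05), SLC38A5 -0.90 ± 0.15 and SLC43A1 -1.26 ± 0.22. SLC43A2 went the opposite way. It had 18.3, 17.6 and 19.2 CPM in the 2-DG CGRP libraries and 17.4, 19.5 and 18.4 CPM in the 2-DG controls, with overlap, and 16.2, 14 and 15.3 CPM in the deprived CGRP libraries and 25.1, 25.4 and 22.8 CPM in the deprived controls, without. Its difference was 0.68 ± 0.10 (adjusted p = 6.7e-04).

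ER chaperones fell with CGRP in 2-DG medium, while in deprived medium most did not pass. Of 24 genes of ER folding and ER-associated degradation, 0 had a positive and 14 a negative difference, with a median of -0.49. In 2-DG medium 18 fell and 0 rose (median -0.42), and in deprived medium 1 fell and 1 rose (median 0.00). The summed level was 9689.7 to 10084 CPM with CGRP and 13374 to 14734 CPM in controls in 2-DG medium. In deprived medium it was 43947 to 51747 CPM with CGRP and 45749 to 46411 CPM in controls. The highest value of each of these ranges from 2-DG controls and deprived CGRP belonged to a library that stands apart. Without both, 20 were negative and 0 positive, with a median of -0.39, and in deprived medium 9 then fell and 4 rose.

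HSPA5, or BiP, is the main chaperone of the ER lumen and holds the sensors of the unfolded protein response inactive. It had 1444, 1373 and 1362 CPM in the 2-DG CGRP libraries and 2201, 2437 and 2164 CPM in the 2-DG controls. It had 18252, 22049.7 and 18448 CPM in the deprived CGRP libraries and 20564, 20837 and 20386 CPM in the deprived controls, and there the groups overlapped through deprived CGRP 2. The effect was -0.70 in 2-DG medium (adjusted p = 9.6e-06) and -0.07 in deprived medium (adjusted p = 0.54), and the difference -0.63 ± 0.10 (adjusted p = 0.0021). Without the libraries that stand apart the effect in deprived medium was -0.16 and passed (adjusted p = 2.4e-05), and the difference was -0.49. PDIA4, a disulfide isomerase, was the member that rose in deprived medium. It had 619.5, 617 and 614 CPM in the 2-DG CGRP libraries and 861, 832 and 847 CPM in the 2-DG controls. It had 2779.9, 2872 and 2735 CPM in the deprived CGRP libraries and 2460.2, 2418 and 2396 CPM in the deprived controls. The difference was -0.66 ± 0.06 (adjusted p = 1.6e-05) and -0.66 without the libraries that stand apart. HYOU1, the ER exchange factor for BiP, had -0.65 ± 0.10 (adjusted p = 0.002), and DNAJB11, a BiP cochaperone, -0.48 ± 0.08 (adjusted p = 0.0025). HSP90B1, XBP1 and CRELD2 had -0.80, -0.52 and -0.86. For CRELD2, MANF and SDF2L1 the size moved by more than 1.5 times without those libraries, to -0.48, -0.50 and -0.54.

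Promoters of some of these genes carry the ER stress element, to which ATF6 and NF-Y bind. The element was searched as CCAAT, 9 bases of any kind and CCACG on both strands of the 250 bases before each start (RefSeq, GRCh38.p14). It was found in 6 of 22 promoters of the list (27.3%) and in 14 of 12037 promoters of tested genes (0.116%). The other holders were CALR and CANX, whose differences of -0.49 and -0.36 did not pass (adjusted p = 0.092 each), though both passed without the libraries that stand apart. PDIA4, HYOU1 and DNAJB11 were not among the holders. Whether the element has a part in any difference was not tested. The 4 shown were picked because they hold the element, in capitals on either strand, and their gene had a negative difference. They are given 5′ to 3′ on the strand of the gene: HSPA5 on the minus strand at chr9:125241344-125241593, HSP90B1 on the plus strand at chr12:103930160-103930409, XBP1 on the minus strand at chr22:28800570-28800819 and CRELD2 on the plus strand at chr22:49918384-49918633. HSP90B1 has 2 copies.
HSPA5: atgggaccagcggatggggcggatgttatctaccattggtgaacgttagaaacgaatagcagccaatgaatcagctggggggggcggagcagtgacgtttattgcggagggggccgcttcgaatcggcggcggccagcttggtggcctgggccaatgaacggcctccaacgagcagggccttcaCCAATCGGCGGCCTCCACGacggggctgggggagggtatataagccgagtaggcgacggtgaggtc
HSP90B1: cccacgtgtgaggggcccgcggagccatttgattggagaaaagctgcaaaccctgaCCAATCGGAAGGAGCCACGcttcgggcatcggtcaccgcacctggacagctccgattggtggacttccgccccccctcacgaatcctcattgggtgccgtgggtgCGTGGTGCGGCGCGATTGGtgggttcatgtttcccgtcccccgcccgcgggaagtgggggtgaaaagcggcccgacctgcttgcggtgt
XBP1: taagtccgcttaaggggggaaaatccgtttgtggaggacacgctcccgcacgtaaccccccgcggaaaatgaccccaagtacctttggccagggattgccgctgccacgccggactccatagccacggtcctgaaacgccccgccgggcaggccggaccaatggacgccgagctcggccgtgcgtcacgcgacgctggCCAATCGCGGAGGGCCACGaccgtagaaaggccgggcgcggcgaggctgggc
CRELD2: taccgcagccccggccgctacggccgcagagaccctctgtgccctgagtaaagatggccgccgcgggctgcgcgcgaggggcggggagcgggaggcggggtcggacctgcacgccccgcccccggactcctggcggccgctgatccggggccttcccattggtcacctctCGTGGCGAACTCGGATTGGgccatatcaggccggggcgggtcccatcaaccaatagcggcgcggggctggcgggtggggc

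The core of the amino acid response element, TGATGNAA on both strands, to which ATF4 with a C/EBP partner binds, was in 3 of 24 promoters of ATF4 targets (12.5%) and in 176 of 12037 (1.46%). CHAC1, on the plus strand at chr15:40953221-40953470, is shown because it is the gene with a negative difference among these 3, and the capitals mark the core on the other strand.
CHAC1: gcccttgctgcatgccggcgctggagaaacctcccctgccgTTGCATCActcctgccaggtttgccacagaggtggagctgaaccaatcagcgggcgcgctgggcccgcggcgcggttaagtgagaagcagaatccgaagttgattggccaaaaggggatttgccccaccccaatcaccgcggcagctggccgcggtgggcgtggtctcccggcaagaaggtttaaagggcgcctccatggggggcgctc

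N-glycosylation genes shared the direction at a smaller size. Of 27 genes of the hexosamine pathway and N-glycosylation, 0 were positive and 7 negative, with a median of -0.13, against 1 and 11 without the libraries that stand apart. STT3A, a catalytic subunit of oligosaccharyltransferase, had 153, 156 and 158 CPM in the 2-DG CGRP libraries and 209.6, 219 and 204 CPM in the 2-DG controls. It had 353, 322 and 351 CPM in the deprived CGRP libraries and 348, 347 and 352 CPM in the deprived controls, with overlap, and its difference was -0.41 ± 0.07 (adjusted p = 0.0027). DPAGT1, the first enzyme of the lipid-linked oligosaccharide and a target of tunicamycin, had -0.35 ± 0.08 (adjusted p = 0.016), ALG1 -0.64 ± 0.11 and RPN1 -0.37 ± 0.08. DPAGT1 and RPN1 were lost in 3 and 2 of 20 alternatives.

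Negative differences were also frequent among NRF2 targets, more of which rose than fell with CGRP in deprived medium. Of 25 tested, 0 were positive and 10 negative, with a median of -0.44. CGRP raised 11 and lowered 1 in deprived medium (median 0.27), and raised 3 and lowered 4 in 2-DG medium (median -0.11). Summed levels were 8135 to 8898 CPM with CGRP and 8689 to 10580.4 CPM in controls in 2-DG medium, and 14704 to 20226 CPM with CGRP and 13148 to 13617 CPM in controls in deprived medium. The upper ends of the 2-DG control and deprived CGRP ranges were the libraries that stand apart. Without them 18 were negative and 1 positive, with a median of -0.35. In that fit CGRP raised 18 and lowered 3 in deprived medium, and raised 4 and lowered 8 in 2-DG medium.

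HMOX1, heme oxygenase 1, had 10.5, 11 and 10.7 CPM in the 2-DG CGRP libraries and 9.31, 10 and 10.4 CPM in the 2-DG controls. It had 90.6, 88.7 and 102 CPM in the deprived CGRP libraries and 52.5, 46.2 and 59.8 CPM in the deprived controls. Groups in deprived medium were well apart, and the difference was -0.71 ± 0.12 (adjusted p = 0.0029). GPX2, a glutathione peroxidase, rose in both media, by 0.38 in 2-DG and 1.13 in deprived medium (difference -0.76 ± 0.13, adjusted p = 0.004). GCLM, the modifier subunit of glutathione synthesis, had -0.62 ± 0.09 (adjusted p = 0.0012). AKR1C2, an aldo-keto reductase, had -0.94 ± 0.12 (adjusted p = 3.1e-04), but its close paralogs AKR1C1 and AKR1C3 may share its reads, so the 3 values are uncertain as single genes. SQSTM1, the autophagy receptor p62 and also an NRF2 target, had 571, 546 and 573 CPM in the 2-DG CGRP libraries and 789, 903 and 797 CPM in the 2-DG controls. It had 2319, 2761 and 2367 CPM in the deprived CGRP libraries and 2197, 2161 and 2249 CPM in the deprived controls. SQSTM1 fell with CGRP in 2-DG medium, by -0.56 (adjusted p = 4.9e-05), and its effect of 0.17 in deprived medium did not pass (adjusted p = 0.11). The difference was -0.73 ± 0.10 (adjusted p = 4.1e-04).

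Mitotic genes moved the opposite way. Of 23 genes of G2/M and mitosis, 12 had a positive and 0 a negative difference, with a median of 0.48, and the estimate was above 0 for all 23. CGRP raised 13 and lowered 0 in 2-DG medium (median 0.29), and raised 0 and lowered 7 in deprived medium (median -0.18). Summed levels were 4477 to 4771 CPM with CGRP and 3435 to 3837 CPM in controls in 2-DG medium, and 1026 to 1129 CPM with CGRP and 1206 to 1258 CPM in controls in deprived medium. Without the libraries that stand apart 19 were positive and 0 negative, with a median of 0.45. Bulk RNA does not tell fewer cells in mitosis from less RNA per cell.

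KIF20A, a kinesin of cytokinesis, had 138, 142 and 137 CPM in the 2-DG CGRP libraries and 94.2, 94 and 96.8 CPM in the 2-DG controls. It had 17.6, 16.3 and 15 CPM in the deprived CGRP libraries and 21.2, 22.2 and 20.6 CPM in the deprived controls. The effects were 0.55 and -0.39 and the difference 0.94 ± 0.08 (adjusted p = 4.9e-06). KIF23, another kinesin of cytokinesis, had 133, 133 and 138 CPM in the 2-DG CGRP libraries and 110.1, 105 and 106 CPM in the 2-DG controls. It had 34.3, 33.2 and 35.3 CPM in the deprived CGRP libraries and 40.3, 41.8 and 43 CPM in the deprived controls, and its difference was 0.62 ± 0.06 (adjusted p = 3.5e-05). TPX2, a spindle assembly factor, had 0.48 ± 0.06 (adjusted p = 3.1e-04), and BUB1, a checkpoint kinase, 0.54 ± 0.09 (adjusted p = 0.002). PLK1, the polo-like kinase, had 0.43. MKI67, the proliferation marker, did not pass (difference 0.78 ± 0.32, adjusted p = 0.22, or 0.30 and 0.16 without the libraries that stand apart). It was low in both of those libraries, at 47.8 CPM in deprived CGRP 2 and 322 CPM in 2-DG control 2. Of 25 genes of DNA replication, 3 were positive and 0 negative, MCM6 at 0.36 ± 0.06 (adjusted p = 0.0038), RRM2 at 0.34 ± 0.08 and RRM1 at 0.24 ± 0.06; the last 2 were lost in 7 and 14 of 20 alternatives.

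The cell cycle homology region, to which the DREAM complex binds, was searched as TTTGAA on both strands. It was in 10 of 20 promoters of the mitotic list (50%) and in 1046 of 12037 (8.69%). MKI67, which did not pass, is among the 10 holders, and KIF20A, TPX2 and BUB1, which reversed, are not. Whether the element has a part in any difference was not tested. KIF23, on the plus strand at chr15:69414099-69414348, and PLK1, on the plus strand at chr16:23678639-23678888, are shown. They were picked because they reversed between media and hold 1 copy each, in capitals.
KIF23: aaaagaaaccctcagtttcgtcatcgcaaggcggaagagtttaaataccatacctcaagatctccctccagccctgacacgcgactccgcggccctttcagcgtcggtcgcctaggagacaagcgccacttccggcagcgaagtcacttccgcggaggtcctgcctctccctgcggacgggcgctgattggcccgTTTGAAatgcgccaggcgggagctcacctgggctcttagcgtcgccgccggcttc
PLK1: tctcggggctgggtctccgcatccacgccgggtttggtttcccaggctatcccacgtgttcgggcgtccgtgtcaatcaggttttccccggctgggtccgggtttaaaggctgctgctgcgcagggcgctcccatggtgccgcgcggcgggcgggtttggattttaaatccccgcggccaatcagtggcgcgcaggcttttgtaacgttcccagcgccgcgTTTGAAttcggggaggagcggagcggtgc

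**Figure D4:**
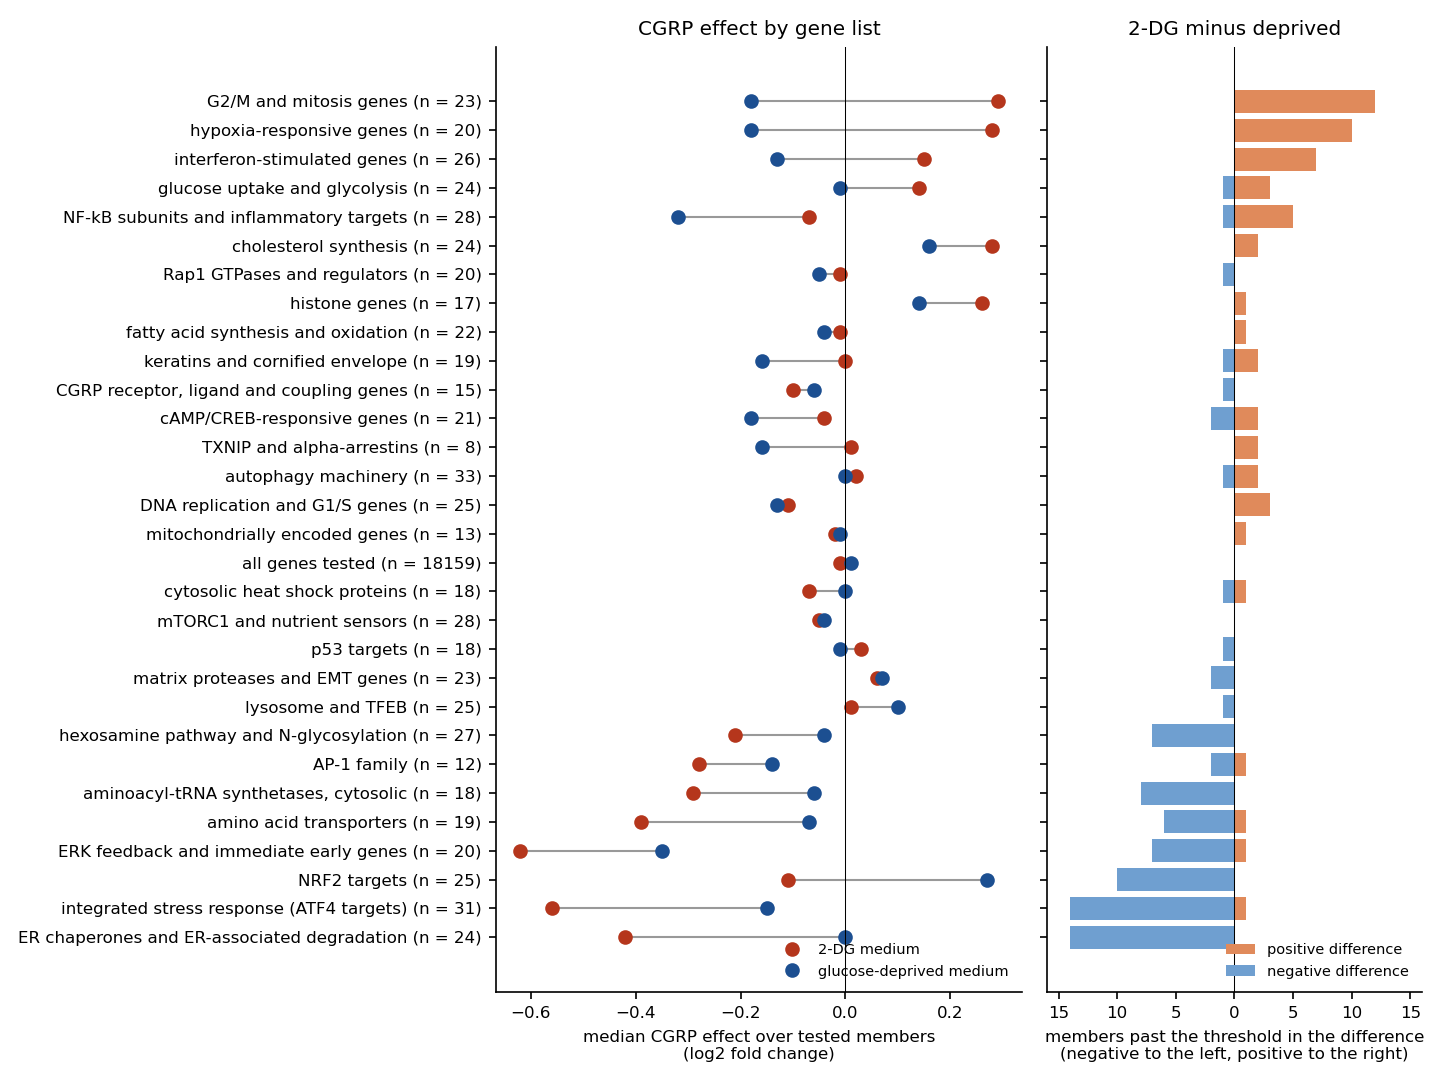
Left, the median log2 fold change with CGRP over the tested members of each gene list, in 2-DG medium (red) and glucose-deprived medium (blue). Right, the number of members whose effects differed, positive to the right and negative to the left; ER chaperones and ATF4 targets had 14 negative members each and mitotic genes 12 positive ones.

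Hypoxia-responsive genes also had positive differences. Of 20 tested, 10 were positive and 0 negative, with a median of 0.32. Leaving out the libraries that stand apart gave 16 positive and 2 negative, with a median of 0.44. In 2-DG medium 11 rose and 3 fell, and in deprived medium 4 rose and 5 fell. EGLN3, a prolyl hydroxylase that marks HIF for degradation, had 205, 185 and 180.1 CPM in the 2-DG CGRP libraries and 144, 163 and 129 CPM in the 2-DG controls. It had 40.5, 41.2 and 35.5 CPM in the deprived CGRP libraries and 55.2, 56.7 and 50.2 CPM in the deprived controls. The direction was opposite in the 2 media without overlap, and the difference was 0.85 ± 0.12 (adjusted p = 6.7e-04). KDM3A, a histone demethylase, had 0.76 ± 0.13 (adjusted p = 0.0031), PDK1, which holds pyruvate back from mitochondria, 0.55 ± 0.10 (adjusted p = 0.0038), and BHLHE40, a repressor, 0.54 ± 0.10 (adjusted p = 0.0066). ANGPTL4, an inhibitor of lipoprotein lipase, fell in both media, by -1.44 in 2-DG and -2.55 in deprived medium. Its difference of 1.12 ± 0.28 (adjusted p = 0.036) was lost in 11 of 20 alternatives. The core ACGTG was in 11 of 17 promoters of the list (64.7%) and in 23.0% of all.

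TXNIP and ARRDC3 are alpha-arrestins, and TXNIP holds back glucose uptake. TXNIP had 896, 867 and 892 CPM in the 2-DG CGRP libraries and 735, 663 and 716 CPM in the 2-DG controls. In deprived medium, where it was far lower, it had 10.4, 10.4 and 11.1 CPM in the deprived CGRP libraries and 13.2, 13.3 and 13.7 CPM in the deprived controls. Neither pair overlapped, CGRP raised it in one medium and lowered it in the other, and the difference was 0.66 ± 0.09 (adjusted p = 5.6e-04). ARRDC3 had 71.2, 68.1 and 68.6 CPM in the 2-DG CGRP libraries and 61.4, 49.9 and 57.5 CPM in the 2-DG controls. It had 18.2, 16.3 and 17.8 CPM in the deprived CGRP libraries and 35.4, 34.4 and 33.4 CPM in the deprived controls, and its difference was 1.28 ± 0.11 (adjusted p = 7.0e-06). The other 6 of 8 tested members did not pass, among them ARRDC4 at 0.28 ± 0.10 (adjusted p = 0.13, or 0.17 and 0.25 without the libraries that stand apart). The carbohydrate response element, to which MondoA and ChREBP bind, was searched as 2 copies of CACGNG with 5 bases of any kind between them on both strands. It was in 1 of 8 promoters of the list and in 13 of 12037 (0.108%). The promoter of TXNIP, on the minus strand at chr1:145996580-145996829, is shown because it holds it, in capitals.
TXNIP: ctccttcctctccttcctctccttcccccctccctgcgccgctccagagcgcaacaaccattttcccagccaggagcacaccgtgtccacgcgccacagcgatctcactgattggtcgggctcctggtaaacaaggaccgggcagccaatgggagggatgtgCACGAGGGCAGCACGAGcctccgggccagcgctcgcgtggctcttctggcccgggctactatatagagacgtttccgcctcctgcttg

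Of 24 genes of glucose uptake and glycolysis, 3 were positive and 1 negative, with a median of 0.21. Leaving out the libraries that stand apart gave 14 positive and 2 negative, with a median of 0.20. ENO2, an enolase, had 0.43 ± 0.10 (adjusted p = 0.017), PFKFB3, which makes an activator of phosphofructokinase, 0.62 ± 0.16, and PFKL 0.29 ± 0.07, and SLC16A1, a lactate carrier, -0.29 ± 0.06 (adjusted p = 0.0092). ENO2, SLC16A1, PFKFB3 and PFKL were lost in 4, 2, 10 and 11 of 20 alternatives, and PFKFB3 was at 0.39 without the libraries that stand apart. The transporter SLC2A1 and the hexokinase HK2 did not pass, at 0.23 ± 0.11 and 0.61 ± 0.21, and SLC2A1 was at 0.13 without those libraries. HK2 was low in deprived CGRP 2, at 134 CPM against 239.9 and 222 CPM in its group mates, and without the libraries that stand apart its difference was 0.31 (adjusted p = 0.049).

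CGRP lowered a majority of the inflammatory genes in deprived medium, while in 2-DG medium most did not pass. Of 28 NF-kB subunits and targets, 5 were positive and 1 negative, with a median of 0.16. CGRP lowered 15 and raised 1 in deprived medium, and lowered 7 and raised 1 in 2-DG medium, where the median was -0.07. Without the libraries that stand apart 12 differences were positive and 2 negative, and in 2-DG medium 9 fell and 5 rose. IL6, the cytokine, had 5.31, 4.28 and 5.53 CPM in the 2-DG CGRP libraries and 4.03, 4.59 and 4.94 CPM in the 2-DG controls, with overlap. It had 14.6, 17.7 and 13.3 CPM in the deprived CGRP libraries and 41, 37.4 and 37.4 CPM in the deprived controls, without overlap. The difference was 1.5 ± 0.16 (adjusted p = 8.8e-05). CX3CL1, or fractalkine, fell in both media, by -0.54 in 2-DG and -1.36 in deprived medium (difference 0.82 ± 0.07, adjusted p = 4.9e-06). CXCL3, a neutrophil chemokine, had 0.84 ± 0.19 (adjusted p = 0.017). CSF2, or GM-CSF, went the opposite way. It had 16.3, 13.6 and 17.2 CPM in the 2-DG CGRP libraries and 53.5, 65.9 and 51.2 CPM in the 2-DG controls. It had 6.11, 7.36 and 6.34 CPM in the deprived CGRP libraries and 14, 14.3 and 13.1 CPM in the deprived controls. It fell in both, more in 2-DG medium, and the difference was -0.80 ± 0.15 (adjusted p = 0.0056). PTGS2, cyclooxygenase 2, had 0.74 ± 0.18 (adjusted p = 0.028), and 0.47 without the libraries that stand apart. The calls of PTGS2 and CXCL3 were lost in 6 and 3 of 20 alternatives.

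A majority of the immediate early genes and feedback genes of ERK fell with CGRP in each medium. Of 20 tested, 1 was positive and 7 negative, with a median of -0.34. In 2-DG medium 12 fell (median -0.62), and in deprived medium 11 fell and 1 rose (median -0.35). Without the libraries that stand apart 2 differences were positive and 9 negative. MYC had 78.8, 72.3 and 74.2 CPM in the 2-DG CGRP libraries and 156, 157 and 152 CPM in the 2-DG controls. It had 88.9, 91.3 and 94.4 CPM in the deprived CGRP libraries and 138, 132 and 128 CPM in the deprived controls. Both pairs were apart, and the difference was -0.51 ± 0.07 (adjusted p = 9.1e-04). DUSP6, the cytosolic ERK phosphatase, had -0.70 ± 0.12 (adjusted p = 0.0029) and PHLDA1 -0.67 ± 0.07 (adjusted p = 3.2e-05). EGR1, a zinc finger factor, had 42, 42.7 and 46.8 CPM in the 2-DG CGRP libraries and 86.1, 84.4 and 89.1 CPM in the 2-DG controls. It had 36.4, 29.9 and 39.4 CPM in the deprived CGRP libraries and 41.6, 37.3 and 35.6 CPM in the deprived controls, with overlap, and the difference was -0.87 ± 0.16 (adjusted p = 0.0051). Of 12 AP-1 genes, 1 was positive and 2 negative. FOSL1, or FRA1, had 31.8, 31.3 and 33.7 CPM in the 2-DG CGRP libraries and 93.8, 111 and 92.2 CPM in the 2-DG controls. It had 71, 63.6 and 69.5 CPM in the deprived CGRP libraries and 105, 86.8 and 92.8 CPM in the deprived controls. Its difference was -1.14 ± 0.13 (adjusted p = 9.8e-05), and that of JUN was -0.39 ± 0.07 (adjusted p = 0.0044). Of 21 cAMP- and CREB-responsive genes, 2 were positive (PTGS2 and ATF3) and 2 negative (FOSL1 and EGR1), with a median of 0.04, against 4 and 2 without the libraries that stand apart. The element TGACGTCA, searched as 1 palindrome, was in 2 of 18 of their promoters (11.1%) and in 2.79% of all.

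Of 26 interferon-stimulated genes 7 were positive and 0 negative, with a median of 0.30, against 12 and 0 without the libraries that stand apart. In 2-DG medium 6 rose and 0 fell, and in deprived medium 2 rose and 7 fell. MX1, a GTPase against RNA viruses, had 73.4, 71.1 and 66.2 CPM in the 2-DG CGRP libraries and 61.7, 58.5 and 58.3 CPM in the 2-DG controls. It had 31.4, 27.3 and 31.4 CPM in the deprived CGRP libraries and 34.8, 34.7 and 34.7 CPM in the deprived controls, and its difference was 0.45 ± 0.09 (adjusted p = 0.0079). OASL, USP18 and IFI44L had differences of 0.47 ± 0.10, 0.35 ± 0.07 and 0.66 ± 0.15, each lost in 2 of 20 alternatives.

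Several large differences lay outside the lists. ACKR3, an atypical receptor for CXCL12 and adrenomedullin, had 14, 12.9 and 12.7 CPM in the 2-DG CGRP libraries and 13.8, 13.6 and 14.1 CPM in the 2-DG controls, with overlap. It had 12.8, 14.5 and 12.4 CPM in the deprived CGRP libraries and 5.63, 5.72 and 7.21 CPM in the deprived controls, about as much with CGRP as in 2-DG medium. The difference was -1.16 ± 0.13 (adjusted p = 1.3e-04). ARNT2, a partner of bHLH-PAS factors, had -1.27 ± 0.22 (adjusted p = 0.0033) and FLRT1, an adhesion protein, -1.73 ± 0.30 (adjusted p = 0.0033). FLRT1 had only 20 counts over the 2-DG CGRP libraries and 52 over the 2-DG controls. CLCA2, a p53-inducible chloride channel regulator, had 2.03 ± 0.50 (adjusted p = 0.03), and SERPINB3, squamous cell carcinoma antigen 1, 1.62 ± 0.35 (adjusted p = 0.015). These 2 calls were lost in 6 and 3 of 20 alternatives, and reads of SERPINB3 may be shared with its near copy SERPINB4. CLCA2 had only 9 counts over the deprived CGRP libraries and 23 over the deprived controls, and its effect there did not pass (adjusted p = 0.092). AKAP12, a scaffold for protein kinase A, had 1.24 ± 0.28 (adjusted p = 0.019) and was lost in 4. RBBP8NL and HCAR3, at -1.24 ± 0.31 and -1.14 ± 0.26, were each lost in 10, and HCAR3 is nearly identical to HCAR2. RAB7B, a late endosomal GTPase, had 16 counts over the deprived CGRP libraries and 2 over the deprived controls, a ratio of 8.35 with a 95% counting interval of 1.96 to 74.9. Its call (adjusted p = 0.045) was lost in 14 of 20 alternatives.

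Some members of other lists differed, and more without the libraries that stand apart. Among all genes tested the share that differed was 3.87% as reported and 17.4% without those libraries. Of 24 cholesterol synthesis genes 2 were positive, HMGCS1 at 0.41 ± 0.09 and MSMO1 at 0.27 ± 0.07, and of 22 genes of fatty acid metabolism 1, ACSS2 at 0.37 ± 0.07 (adjusted p = 0.004). HMGCS1 and MSMO1 were lost in 3 and 11 of 20 alternatives. Without the 2 libraries 11 cholesterol synthesis genes were positive and 3 negative, and 5 and 4 of fatty acid metabolism. Of 33 autophagy genes ULK1, the initiating kinase, was positive at 0.49 ± 0.07 (adjusted p = 6.2e-04), reversing between media, and NBR1 at 0.35 ± 0.09; SQSTM1 was negative. NBR1 was lost in 10 of 20 alternatives and was at 0.23 without the 2 libraries, where 6 of the list were positive and 3 negative. MAP1LC3B did not pass (-0.09 ± 0.11, adjusted p = 0.68) and turned to 0.08 without them (adjusted p = 0.32). Of 25 lysosomal genes only MCOLN1 differed, at -0.38 ± 0.08, against 3 positive and 3 negative without the 2 libraries. Of 28 genes of mTORC1 and nutrient sensing, 0 differed by edgeR's quasi-likelihood test, where 4 had an unadjusted p under 0.05. DESeq2 called 2 at an adjusted p under 0.05. Without the 2 libraries edgeR gave 3 positive and 2 negative. PLAU, urokinase, reversed: it fell in 2-DG medium by -0.31 and rose in deprived medium by 0.25 (difference -0.56 ± 0.07, adjusted p = 3.1e-04), and with SERPINE2 at -0.65 ± 0.10 it made up the 2 of 23 matrix and EMT genes that differed, against 1 positive and 6 negative without the 2 libraries. Of 19 keratins and cornified envelope genes KRT6A (0.41 ± 0.08) and KRT6C (1.22 ± 0.27) were positive and SPRR1A (-1.33 ± 0.30) negative, and reads of these paralogs may be shared. SPRR1A was lost in 4 of 20 alternatives and KRT6C in 2 of 19. Without the 2 libraries 5 of that list were positive and 1 negative. Single members differed among mitochondrially encoded genes (MT-ND6, 0.48 ± 0.10), p53 targets (AEN, -0.54 ± 0.11) and histones (H2BC21, 0.50 ± 0.13), and 2 among heat shock proteins (HSPA1A, -0.66 ± 0.13, a near copy of HSPA1B, and HSPA4L, 0.46 ± 0.12). H2BC21 was lost in 15 and HSPA4L in 12 of 20 alternatives, and without the 2 libraries they were at 0.42 (adjusted p = 0.053) and 0.27 (adjusted p = 0.026). Without those libraries 5 mitochondrially encoded genes of 13 were positive and 1 negative, 2 and 3 of 18 p53 targets, 6 and 0 of 17 histones, and 3 and 3 of 18 heat shock proteins.

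The CGRP effect in high glucose gives another point, from libraries that neither medium shares. For 456 of the 702 genes (65.0%) it lay nearer the effect in 2-DG medium than that in deprived medium, against 54.1% of all genes tested. The lists went both ways. In high glucose the median was -0.43 for ATF4 targets and 0.31 for hypoxia-responsive genes, nearer the medians in 2-DG medium. It was 0.01 for ER chaperones and 0.02 for N-glycosylation genes, nearer the medians in deprived medium. Across the 702 genes, which are not independent replicates, the log2 fold changes in high glucose correlated at 0.72 with those in 2-DG medium and at 0.16 with those in deprived medium, against 0.35 and 0.31 over all genes. The 702 genes were picked by the difference between the 2 effects compared here, so their share and correlations are no independent support. GDF15 in high glucose averaged 22 ± 0.866 CPM with CGRP and 44.5 ± 2.85 CPM in controls (SD, n = 3 each), and PSAT1 193 ± 2.72 CPM with CGRP and 338 ± 3.35 CPM in controls (SD, n = 3 each). KIF20A averaged 147 ± 2.03 CPM with CGRP and 143 ± 2.87 CPM in controls (SD, n = 3 each). HSPA5 averaged 1003 ± 13 CPM with CGRP and 923 ± 4.11 CPM in controls (SD, n = 3 each). The log2 fold changes of GDF15 (-1.01) and PSAT1 (-0.81) in high glucose lay nearer those in 2-DG medium. Those of KIF20A (0.05) and HSPA5 (0.12) lay nearer those in deprived medium.

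**Figure D5:**
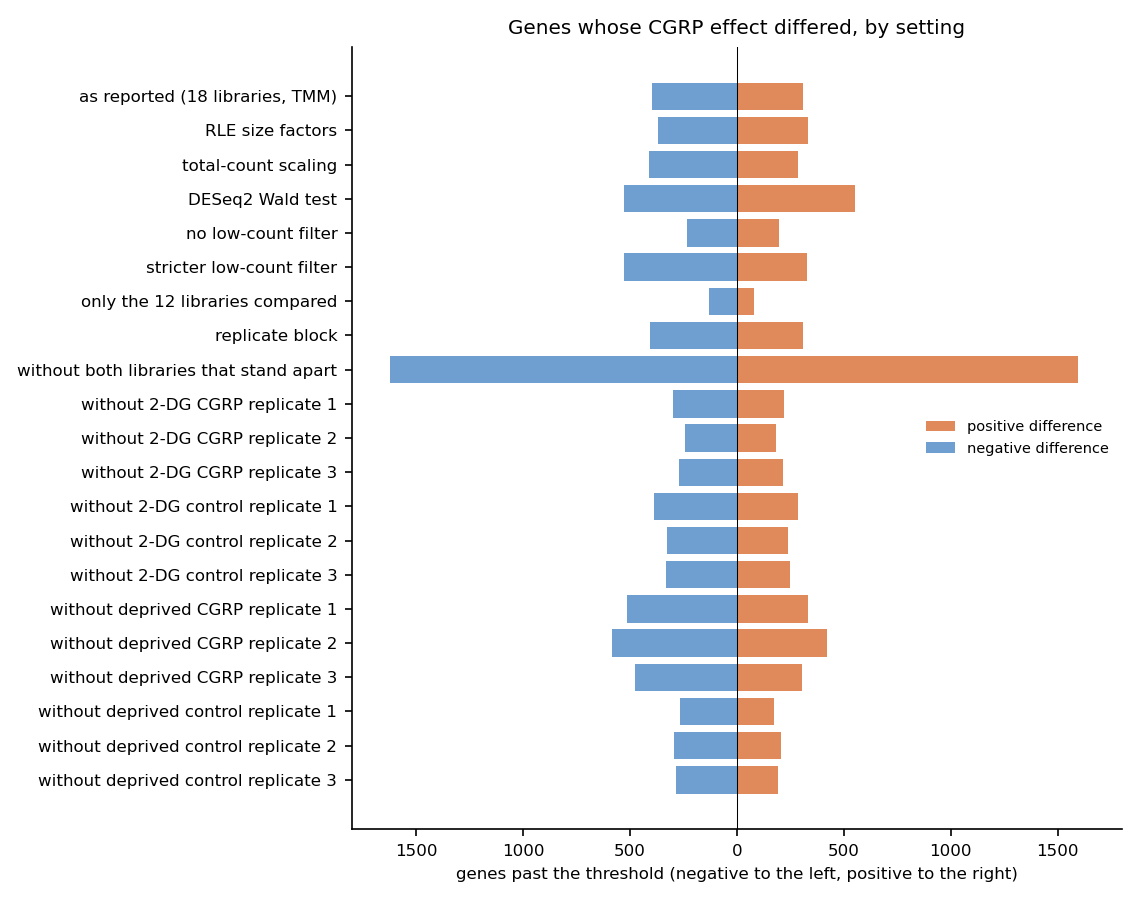
Number of genes whose CGRP effect differed under each setting, positive differences to the right and negative to the left. The 702 genes as reported compare with 211 when only the 12 libraries were fitted and 3219 without deprived CGRP 2 and 2-DG control 2.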

How the data were processed

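Total RNA of 18 Cal27 cultures was sequenced by Illumina, per the labels' protocols. The deposited table gives raw counts for 60683 Ensembl genes in each library, per the file headers. Of these, 60370 had an entry in the gene name table used. The authors aligned with HISAT2 2.0.4, per the submitters' processing notes, where both hg19 and GRCh38 appear. How genes were counted, on which annotation and strand, is not stated in the sources used, so close paralogs and overlapping or antisense genes are uncertain.

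A gene entered the tests when filterByExpr kept it (minimum count 10, minimum total 15), which 18159 did. TMM factors and the quasi-likelihood F test of edgeR 4.0.16 (R 4.3.3, limma 3.58.1; robust) were fitted to the 18 libraries together, a coefficient for each of 6 groups, leaving 12 residual degrees of freedom. The common coefficient of variation was 9.44%. Benjamini-Hochberg adjustment ran over the genes tested, with 0.05 as threshold. The 3 comparisons were CGRP minus control in 2-DG medium, the same in deprived medium, and the first minus the second. Log2 differences are given ± SE, and CPM is the count adjusted for TMM library size. Principal components were taken from log2 CPM with a prior count of 2. Depth was 28038260 to 32661768 counts per library, and intervals cover counting error only. Counts were also simulated for all 18 libraries from the means of the 2-DG controls, with 200 genes changed in the 2-DG CGRP group alone. With 50 genes per class, the test of the difference recovered 72% raised 2-fold, 46% raised 1.5-fold, 88% lowered 2-fold and 64% lowered 1.5-fold. It called 0.0446% of 17959 unchanged genes. The simulation held no effect of the medium and no shared deviation of the libraries that stand apart, so these rates need not hold for the data.

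Named genes are the 12 largest differences each way and the 10 largest reversals among genes that passed with and without the 2 libraries that stand apart (641 genes, 72 of them reversals), whose mean log2 CPM is 1 or more and which have a symbol, then up to 4 members per list by adjusted p, then 14 set genes, 107 in all. Other list members were named after their values were seen. The members, the rule and the 36 gene lists were chosen with earlier results of these data known, so they are no independent support. Several genes stand in more than 1 list, among them ATF3, SLC3A2, FOSL1, EGR1 and PTGS2. Promoters come from RefSeq (GRCh38.p14), transcript lengths from GENCODE.

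The 20 alternatives, each changing one choice, were RLE scaling, scaling by total counts, DESeq2 1.42.0 (Wald test), all genes without a filter, genes over 1 CPM in 3 libraries with a mean over 2 CPM, the 12 libraries alone, replicate number as a block, both libraries that stand apart left out, and each of the 12 libraries left out.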

Additional observations from a re-analysis of the deposited data

Results flagged for a closer look

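A test of the difference itself picked out the 702 genes whose CGRP effect differed between 2-DG and deprived medium and the 77 that reversed. The same test (edgeR quasi-likelihood, Benjamini-Hochberg adjusted p under 0.05) picked out 98 of the 107 named genes, and their log2 differences, 2-DG minus deprived, follow. No group has the 4 or more libraries that a search for single outlying libraries would need. Among ATF4 targets, the log2 difference was 0.32 for ATF3; it was -3.03 for INHBE, -1.25 for GDF15, -1.03 for TRIB3, -0.96 for PSAT1 and -0.78 for SLC3A2. For ER chaperones, the log2 difference was -0.66 for PDIA4, -0.65 for HYOU1, -0.63 for HSPA5 and -0.48 for DNAJB11. For N-glycosylation genes, the log2 difference was -0.64 for ALG1, -0.41 for STT3A, -0.37 for RPN1 and -0.35 for DPAGT1. For aminoacyl-tRNA synthetases, the log2 difference was -0.77 for WARS1, -0.65 for GARS1, -0.54 for YARS1 and -0.45 for AARS1. For amino acid transporters, the log2 difference was 0.68 for SLC43A2; it was -1.26 for SLC43A1, -0.90 for SLC38A5 and -0.56 for SLC1A5. Of NF-kB targets, the log2 difference was 1.5 for IL6, 0.84 for CXCL3, 0.82 for CX3CL1 and 0.74 for PTGS2; it was -0.80 for CSF2. Of immediate early and ERK feedback genes, the log2 difference was -1.01 for DUSP4, -0.87 for EGR1, -0.70 for DUSP6, -0.67 for PHLDA1 and -0.51 for MYC. Of NRF2 targets, the log2 difference was -0.94 for AKR1C2, -0.76 for GPX2, -0.71 for HMOX1 and -0.62 for GCLM. Of hypoxia-responsive genes, the log2 difference was 1.12 for ANGPTL4, 0.85 for EGLN3, 0.76 for KDM3A, 0.55 for PDK1 and 0.54 for BHLHE40. Of interferon-stimulated genes, the log2 difference was 0.66 for IFI44L, 0.47 for OASL, 0.45 for MX1 and 0.35 for USP18. Of mitotic genes, the log2 difference was 0.94 for KIF20A, 0.62 for KIF23, 0.54 for BUB1 and 0.48 for TPX2. 

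Outside the lists positive differences were 3.90 for EDN2, 2.33 for SLC28A3, 2.10 for STC1, 2.03 for CLCA2, 1.62 for SERPINB3, 1.5 for TCAF2, 1.28 for PPP1R3B, 1.24 for AKAP12, 1.21 for CCNG2 and 0.87 for CEBPD. Outside the lists negative differences were -2.81 for RAB7B, -1.87 for AGR2, -1.73 for FLRT1, -1.55 for TMEM52, -1.27 for ARNT2, -1.24 for RBBP8NL, -1.16 for ACKR3 and -1.14 for HCAR3. In the remaining lists positive differences were 1.28 for ARRDC3, 1.22 for KRT6C, 0.66 for TXNIP, 0.62 for PFKFB3, 0.50 for H2BC21, 0.49 for ULK1, 0.48 for MT-ND6, 0.46 for HSPA4L, 0.43 for ENO2 and 0.41 for HMGCS1. In the remaining lists, further positive differences were 0.41 for KRT6A, 0.37 for ACSS2, 0.36 for MCM6, 0.35 for NBR1, 0.34 for RRM2, 0.29 for PFKL, 0.27 for MSMO1 and 0.24 for RRM1. In the remaining lists negative differences were -1.33 for SPRR1A, -1.14 for FOSL1, -1.07 for ADM2, -0.73 for SQSTM1, -0.66 for HSPA1A, -0.66 for CSF1R, -0.65 for SERPINE2, -0.56 for PLAU, -0.54 for AEN and -0.39 for JUN. In the remaining lists, further negative differences were -0.39 for RAP2B, -0.38 for MCOLN1 and -0.29 for SLC16A1.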

How the results depend on the processing

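The counts of genes called moved most with the libraries. For the difference, 702 genes became 701 with RLE, 697 with total counts, 1081 with DESeq2, 430 without a low-count filter, 857 with a stricter one, 211 with only the 12 libraries, 714 with the replicate block and 3219 without both libraries that stand apart. CGRP in 2-DG medium called 1278 genes with only the 12 libraries and 5249 without those 2 libraries, and in deprived medium 1184 and 5307, or 1463 without a low-count filter. Reversals numbered 28 without the filter, 21 with only the 12 libraries, 110 with DESeq2, 80 with the block and 432 without the 2 libraries. With 1 library left out at a time the difference gave 427 (without 2-DG CGRP 2) to 1002 genes (without deprived CGRP 2), CGRP in 2-DG medium 1447 to 3853, CGRP in deprived medium 1282 to 2726, and reversals 36 (without deprived control 1) to 116 (without deprived CGRP 2). The difference also fell by more than 1.5 times, to 438, without deprived control 1. The cause was not tested.

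The share raised by CGRP among genes called in 2-DG medium was 43.5% with TMM and 57.0% with total counts, and in deprived medium 49.2% with TMM and 66.2% with total counts. No scaling moved the median of all genes by over 0.1. Of 2137 comparisons of a named gene with an alternative 9 changed sign, all in 4 genes whose difference did not pass as reported or there: without both libraries that stand apart CALCRL turned to -0.12, RAMP1 to 0.13, ASNS to -0.34 and MAP1LC3B to 0.08, and with 1 library left out at a time CALCRL ran between -0.05 and 0.33, ASNS between -0.17 and 0.26 and MAP1LC3B between -0.16 and 0.02. Of the 98 named genes called in the difference, 56 passed in every alternative. H2BC21 did not pass without the 2 libraries that stand apart (adjusted p = 0.053). For 18 same-numbered pairs of libraries the deviations from the group means correlated at -0.19 to 0.64, 3 over 0.1, and 5 of 12 libraries correlated best with their own number, so the numbers were not taken to pair the samples; the replicate block moved no count by over 1.5 times. Genes with few counts, such as RAB7B, are limited by depth.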
